A study of Mus musculus with 186 samples.

Results

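The BCL2 family decides whether the outer mitochondrial membrane of a cell is kept closed or is opened to start apoptosis. The 10 genes described here were taken by name from the 55421 genes of the table: the anti-death genes Mcl1 and Bcl2l1 (the gene of BCL-XL), the effector genes Bax and Bak1, and the BH3-only genes Bad, Bcl2l11 (BIM), Bid, Bbc3 (PUMA), Pmaip1 (NOXA) and Bmf. Their RNA was measured in 169 single inner cells of CD-1 mouse embryos. Inner cells were isolated by immunosurgery, which kills the outer layer with antibody and complement, after the zona pellucida had been removed.

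The cells came from 7 groups. Fresh embryos from natural matings were collected when aged E3.25 (19 cells), E3.75 (22 cells) or E4.0 (14 cells), counted in days of development. Other embryos were taken as morulae at E2.75 and cultured in KSOM medium. They received the PI3K (phosphoinositide 3-kinase) inhibitor LY294002, called LY here, at 10 µM for 16 h (31 cells) or 24 h (24 cells), or the vehicle DMSO for 16 h (31 cells) or 24 h (28 cells). The labels give no genetic change in any group. Within a group, cells with a common date label formed 1 experiment, and the experiment is the replicate here. Each stage of fresh embryos had 2 experiments and every cultured group had 3, of 3 to 18 cells each. The series' design text gives 184 cells and describes experiments as independent, with several litters pooled in each. P-values therefore measure the spread between pools of embryos collected on different dates.

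Anti-death BCL2 proteins hold BAX and BAK in check. Once active, BAX and BAK assemble into pores that let cytochrome c out of mitochondria, and caspases follow. BH3-only proteins respond to stress and either occupy the anti-death proteins or switch on the effectors directly. PI3K signalling touches the family at several points: AKT phosphorylates BAD, which 14-3-3 proteins then hold away from mitochondria, and AKT keeps FOXO factors, activators of Bcl2l11 and Bbc3, out of the nucleus. In the mouse blastocyst some inner cells die by apoptosis during normal development.

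The shared mark of the family is the BH3 segment, by which its members bind one another. It is shown here because it is the one stretch that joins genes otherwise so unlike. The coding bases below were read from the GENCODE M21 transcripts of GRCm38 (the genome called mm10), strand of the gene, as 24 bases each. Capitals mark the codon of the conserved leucine and the codon of the conserved aspartate.
Mcl1 (chr3:95659436-95659459, plus strand): CTGcggcgcgtgggcGACggcgtg
Bcl2l1 (chr2:152829700-152829723, minus strand): CTGagagaggcaggcGATgagttt
Bax (chr7:45466000-45466023, minus strand): CTCcggcgaattggaGATgaactg
Bak1 (chr17:27022534-27022557, minus strand): CTTgctctcatcggaGATgatatt
Bad (chr19:6950792-6950815, plus strand): CTCcgaaggatgagcGATgagttt
Bcl2l11 (chr2:128147150-128147173, plus strand): CTGcggcggatcggaGACgagttc
Bid (chr6:120897292-120897315, minus strand): CTCgcccaaataggcGATgagatg
Bbc3 (chr7:16313773-16313796, plus strand): CTGcggcggatggcgGACgacctc
Bmf (chr2:118545103-118545126, minus strand): CTTcagtgtattgcaGACcagttc
Each stretch lies within 1 coding exon. The search was for a leucine codon, any 3 codons, a codon of glycine, alanine or serine and then an aspartate codon. It used the principal coding transcript of the annotation, or the longest where several ranked alike, and matched once in each of these 9 genes. In Pmaip1 it matched at 2 places, and its bases are not shown here. The pattern is short and was also found in 33.7% of the 21877 genes with a coding sequence, read there from the longest coding sequence of each gene. A match alone therefore does not mark a BH3 segment.

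Values are TPM, transcript abundances scaled to a fixed total per cell, and a cell was counted as detecting a gene at a TPM of 1 or more. Levels of an experiment are log2(TPM + 1) averaged over the cells in it, and differences below are differences of these means. That mean does not separate how many cells carry a transcript from how much each carries. TPM keeps no sequencing depth, so depth is unknown. Cells detected between 3806 and 10220 genes (median 6584), with group means from 5439 ± 918 in 24 h LY to 8084 ± 1655 in 16 h DMSO (SD over 3 experiments each). The first 16 h DMSO experiment stood apart, with 3 cells, 9995 genes per cell and a trophectoderm marker score of 4.25, where the other 17 experiments lay between 1.06 and 2.32. The first 24 h DMSO experiment (6 cells) had the lowest mitochondrial share, 1.55% of TPM, where the others lay between 3.05% and 16.1%. As a check of the inner-cell label, Pou5f1, a pluripotency gene, was detected in 169 of 169 cells and the trophectoderm gene Cdx2 in 18. Other trophectoderm genes were common. Krt8 was detected in 10 of 14 cells at E4.0 and 31 of 31 in 16 h LY, and Krt18 in 6 of 14 at E4.0 and 30 of 31 in 16 h DMSO. Of 14 trophectoderm markers, 6 (E3.75) to 10 (16 h DMSO) were detected in at least 25% of the cells of a group. Cdx2 alone therefore does not describe these markers. Every 16 h experiment was collected later than every 24 h and fresh one, so collection period and group cannot be told apart when 16 h groups are set against 24 h or fresh groups.

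The genes differed widely in how often they were detected. Mcl1 was detected in 165 of 169 cells (97.6%), Bax in 159 (94.1%) and Bad in 149 (88.2%). Bcl2l11 was detected in 92 cells (54.4%) and Bcl2l1 in 87 (51.5%). Bid (24.9%), Bmf (22.5%), Pmaip1 (18.3%), Bbc3 (17.2%) and Bak1 (8.28%) were detected in a minority. Low transcript numbers are often missed in single cells, so these shares are of cells with a detected transcript, not of cells that express the gene.

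**Figure D1:**
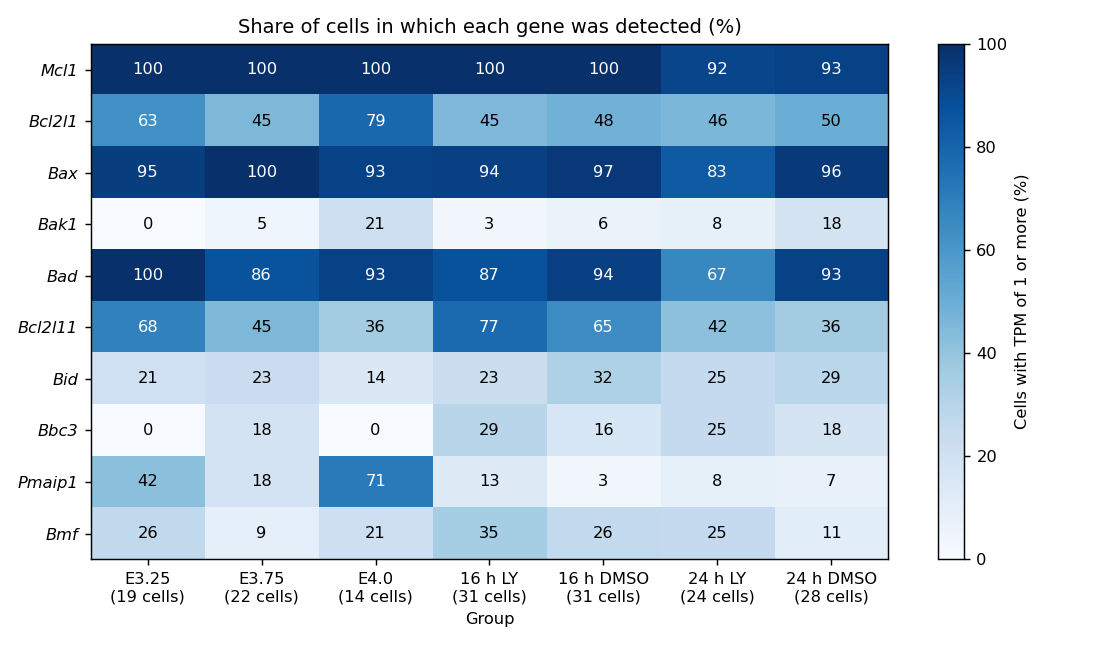
Share of cells (%) with a TPM of 1 or more for each of the 10 genes (rows) in each of the 7 groups (columns, with the number of cells). Mcl1, Bax and Bad fill the dark rows, while Pmaip1 stands out at E4.0 with 71.4% of cells and Bbc3 is at 0 at E3.25 and E4.0.

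Individual cells held mixtures of the family. On average 4.77 of the 10 genes were detected per cell (range 1 to 8). Both anti-death genes were detected together in 86 of 169 cells, and neither in 3 cells, all of them cultured for 24 h. At least 1 effector gene was detected in 160 cells. At least 3 of the 6 BH3-only genes were found in 70 cells, and no BH3-only gene in 5. Experiment means of genes detected per cell lay between 4.35 ± 0.57 in 24 h LY and 5.34 ± 1.15 in 16 h DMSO (SD, n = 3 each), and between 4.60 ± 0.37 and 5.22 ± 0.31 in the fresh stages (SD, n = 2 each). No test was run on these means.

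**Figure D2:**
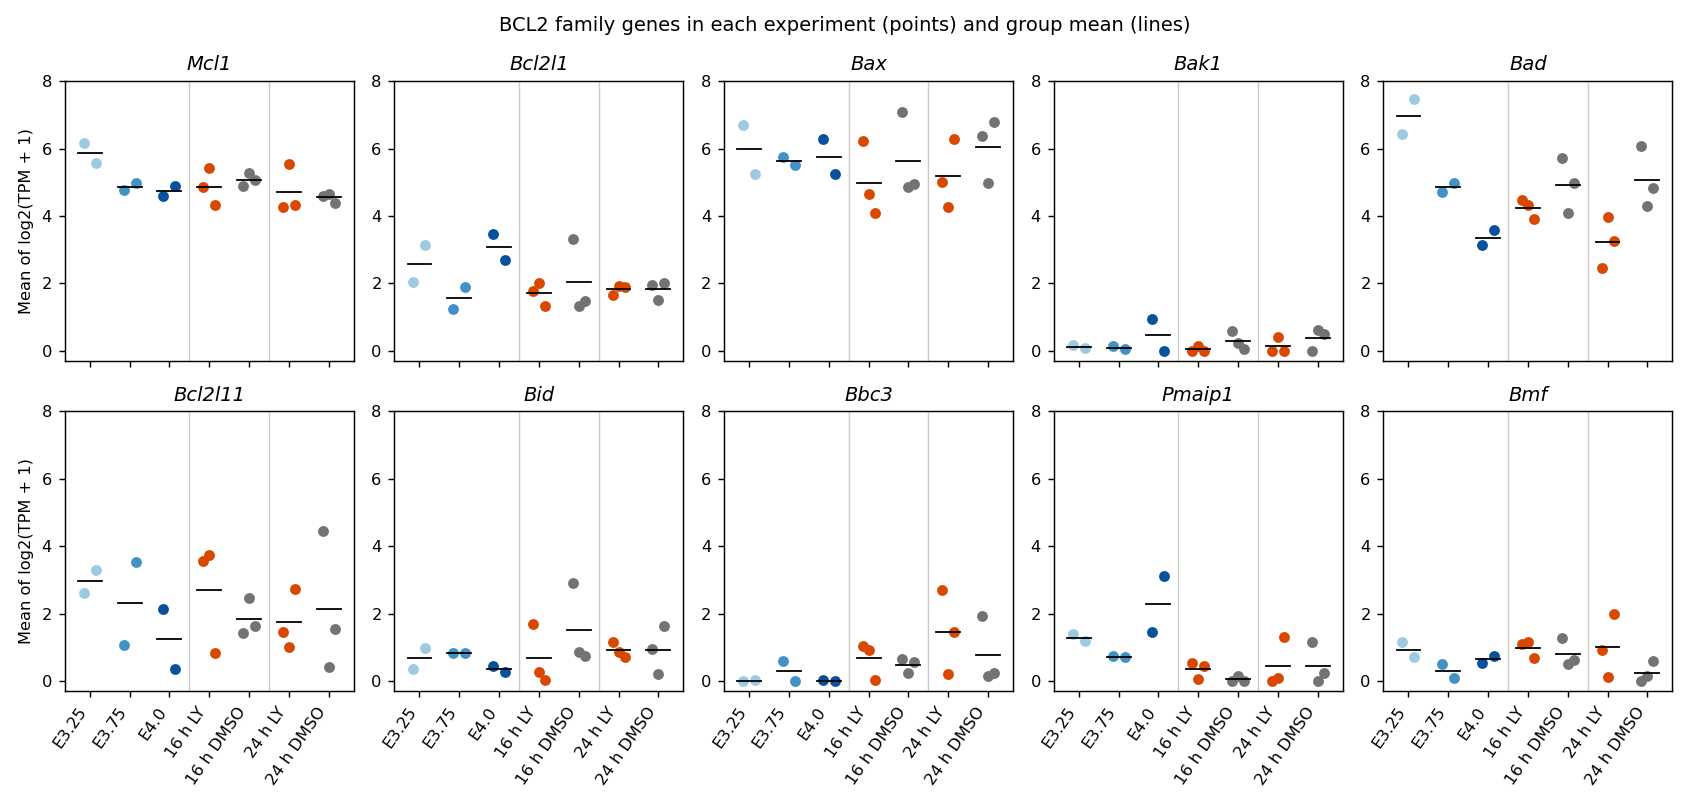
Mean of log2(TPM + 1) over the cells of each experiment (points) and the mean over experiments (black lines) for the 10 genes, with the fresh stages in order of age and LY left of DMSO at each culture time. The Bad panel steps down over the fresh stages, with group means of 6.95 (E3.25), 4.85 (E3.75) and 3.36 (E4.0).

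Of the 10 genes, 9 passed the filter for testing, which asked that some group detect the gene in 25% or more of its cells, and Bak1 did not. All 11680 genes that passed were tested together with limma, with Benjamini-Hochberg adjustment over all of them and a threshold of 0.05. In E4.0 against E3.25, 1 of the 9 family genes passed (Bad, lower), against 1.67% of all tested genes (164 higher and 31 lower). Quantile normalization took the median difference of all genes there to -0.01, where it was 0.20 without it, and gave 129 higher and 71 lower. The Bad difference was then -3.98 (limma adjusted p = 0.0019). In E4.0 against E3.75 none of the 9 passed (limma, 2 at an unadjusted p under 0.05), against 1.41% of all genes (1108, or 9.49%, at an unadjusted p under 0.05). In E3.75 against E3.25 none of the 9 passed (limma, 1 at an unadjusted p under 0.05), against 0% of all genes (536 at an unadjusted p under 0.05).

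The anti-death gene Mcl1 encodes a short-lived protein that early embryos cannot do without. Experiments of E3.25 had levels of 6.17 and 5.58, with 4.76 and 4.97 in those of E3.75 and 4.60 and 4.89 in those of E4.0, on the log2(TPM + 1) scale. Both E3.25 experiments lay above all experiments of the other fresh stages. The difference between E4.0 and E3.25 was -1.13 (95% interval -2.52 to 0.26) and did not pass. In mean TPM the E4.0 experiments had 32.2 and 34.3, against 109 and 69.4 at E3.25.

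Bcl2l1, whose protein BCL-XL sequesters BH3-only proteins and effectors, had a level of 2.05 and 3.13 at E3.25, 1.24 and 1.88 at E3.75 and 3.47 and 2.69 at E4.0. Both E4.0 experiments lay above both E3.75 experiments, and E3.25 overlapped E4.0. Against E3.75, the E4.0 level differed by 1.52 ± 0.72 (SE), which did not pass (limma adjusted p = 0.515). It was detected in 11 of 14 cells at E4.0 and 10 of 22 at E3.75.

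Other anti-death relatives were nearly silent at this detection limit. Bcl2, the founding gene, was detected in 0 of 169 cells (an upper limit of 1.78% from 3 counts of the total), with a highest TPM of 0.35. Bcl2l2 (BCL-W) was detected in 6 cells and Bcl2l10 in 4, and the paralogs Bcl2a1a, Bcl2a1b and Bcl2a1d were listed at 0 in every cell, although reads of near-identical copies can be split or lost. None of these 6 genes passed the filter, so Mcl1 and Bcl2l1 were the anti-death genes that could be tested.

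Bax, the effector that moves from cytosol to mitochondria when activated, was present throughout. Its level was 6.69 and 5.25 at E3.25, 5.73 and 5.53 at E3.75 and 6.28 and 5.23 at E4.0. The stages overlapped, and the E4.0 minus E3.25 difference was -0.22 (95% interval -2.16 to 1.73). In the culture groups Bax levels ran between 4.09 and 7.10. Bak1, the effector that sits in the mitochondrial membrane, was detected in 0 of 19 cells at E3.25 (a share of up to 15.8% is allowed by that count), 1 of 22 at E3.75 and 3 of 14 at E4.0, all 3 in the same E4.0 experiment. Without the filter its E4.0 minus E3.25 difference was 0.35 ± 0.29 (SE; limma adjusted p = 0.679). Bok, a relative of these effectors, was detected in 151 of 169 cells.

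Bad, the BH3-only gene whose protein is a direct target of AKT, was the only member to pass in a stage comparison with all experiments fitted. At E3.25 its level was 6.42 and 7.48, at E3.75 it was 4.72 and 4.99, and at E4.0 it was 3.13 and 3.59. The 3 stages did not overlap, and each later stage lay below the earlier one. In mean TPM the E4.0 experiments had 22.1 and 15.8, against 153.7 and 262.5 at E3.25. The difference between E4.0 and E3.25 was -3.59 ± 0.77 (SE; limma adjusted p = 0.0150; n = 2 experiments each), and Bad therefore fell. The steps in between did not pass: E3.75 minus E3.25 was -2.10 (limma adjusted p = 1) and E4.0 minus E3.75 was -1.50 (95% interval -3.11 to 0.11).

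The lower level at E4.0 lay in the amount per detecting cell, while the share of detecting cells stayed high. Bad was detected in 13 of 14 cells at E4.0 (92.9%, exact 95% interval 66.1% to 99.8%) and in 19 of 19 at E3.25 (100%, interval 82.4% to 100%). The interval covers counting of cells only. Among cells that detected Bad, the median TPM was 9.415 and 16.9 in the E4.0 experiments, against 131 and 218 in the E3.25 experiments. A TPM of 10 or more was reached by 7 of 14 cells at E4.0 and by 18 of 19 at E3.25.

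**Figure D3:**
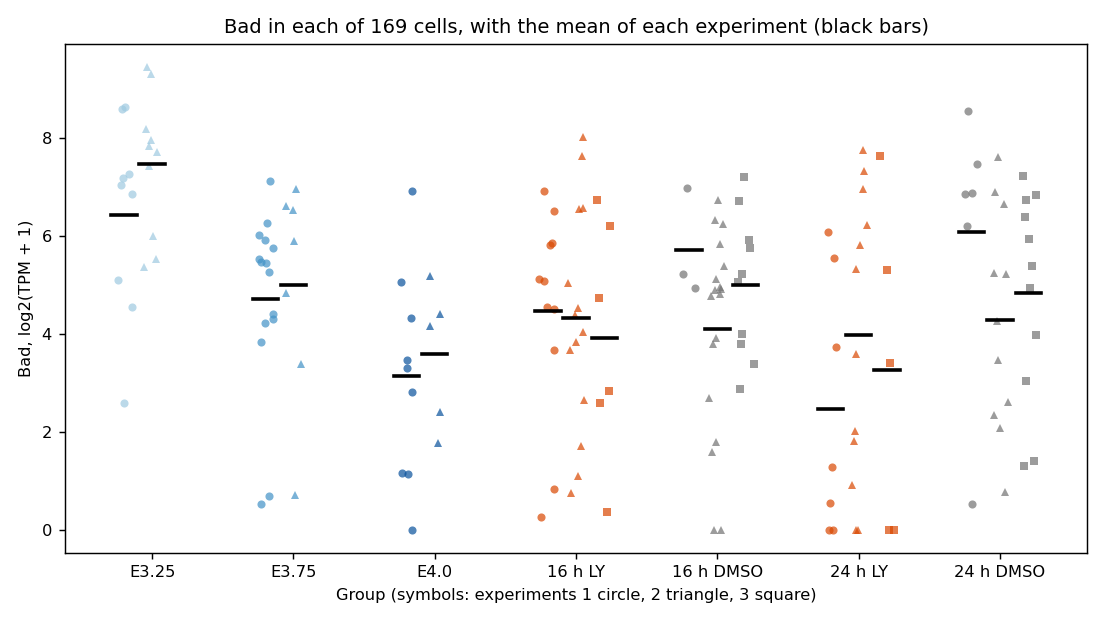
Bad in each of the 169 cells, as log2(TPM + 1), by group, with symbols for the experiments of a group and a black bar for the mean of each experiment. Cells at E3.25 reach the highest values, up to 697.7 TPM, and the 24 h LY group has 8 cells of 24 under a TPM of 1.

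The fall of Bad kept its direction in all 18 alternatives run for it, from -4.12 to -2.65, but not always its call. Leaving out the second E3.25 experiment ended the call (-3.06; limma adjusted p = 0.229). So did leaving out either E4.0 experiment, the first (-3.37; limma adjusted p = 0.0771) or the second (-3.82; limma adjusted p = 0.0511). Markers of primitive endoderm, the lineage that will line the yolk sac, differed over the same stages. Their mean score over 12 genes was 3.84 and 4.16 at E4.0, against 1.47 and 1.66 at E3.25, and 12 of the 12 were detected in at least 25% of cells at E4.0 against 8 at E3.25. Of these 12 markers 6 rose in E4.0 against E3.25, by 5.21 for Srgn, 5.11 for Amn, 4.13 for Lama1, 3.22 for Gata4, 3.09 for Foxa2 and 2.03 for Sox7 (limma adjusted p of 0.00942 or less). Differences of the 12 lay above 0 for 11 and below 0 for 1. The calls of Gata4 and Lama1 ended without either E3.25 experiment or the second E4.0 experiment (limma adjusted p from 0.055 to 0.118). In E4.0 against E3.75, 5 of the 12 rose, namely Srgn (4.97), Amn (4.06), Foxa2 (3.12), Dab2 (2.97) and Sox7 (1.90), with limma adjusted p of 0.0439 or less. There Amn lost its call without the first E3.75 experiment (adjusted p = 0.0619), and Dab2 without either E3.75 experiment or the first E4.0 one (adjusted p from 0.173 to 0.323). None of the marker calls in either comparison held when only the groups compared were fitted. With cells of sequencing run 1 only, Foxa2 kept its call in both comparisons, Srgn kept it against E3.75 alone, and the others lost theirs.

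The trophectoderm score was 1.53 and 1.55 at E4.0 and 1.93 and 1.85 at E3.25, and it was lowest at E3.75 (1.06 to 1.39). Epiblast markers scored 4.74 to 5.62 at E4.0, against 4.68 to 4.75 at E3.25. Across the 169 cells Bad correlated with the trophectoderm score at 0.17 (0.10 within experiments), with the epiblast score at 0.16 (0.06 within experiments) and with the primitive endoderm score at -0.02 (0.04 within experiments). These are weak values, given as a description because cells of an experiment are not replicates. The part of the 3 lineages in the fall of Bad was not tested. Mitochondrial genes took 14.3% and 16.1% of TPM at E4.0 and 3.05% and 10.9% at E3.25. With TPM rescaled without them, Bad still fell (limma adjusted p = 0.0174).

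Exons of Bad share 524 bases, 20.5% of its exon bases, with Gpr137 on the opposite strand, and the sources used here do not state that reads were counted by strand. Reads of the pair therefore cannot be told apart in that stretch. Gpr137, chosen after its values were seen, had a level of 1.71 and 1.27 at E4.0, against 0.81 and 2.36 at E3.25. Its difference was -0.10 (limma adjusted p = 0.980), and its groups overlapped. Bid likewise overlaps Bcl2l13 and Bak1 overlaps Ggnbp1 on the opposite strand, and Bax shares 192 bases with Gm45808 on the same strand.

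Ordered by mean level over experiments, Bad stood highest at E3.25 (6.95 ± 0.75, n = 2), followed by 24 h DMSO (5.07 ± 0.92, n = 3), 16 h DMSO (4.93 ± 0.81, n = 3), E3.75 (4.85 ± 0.19, n = 2), 16 h LY (4.23 ± 0.29, n = 3), E4.0 (3.36 ± 0.32, n = 2) and 24 h LY (3.24 ± 0.76, n = 3; all SD). Neighbours whose experiments overlapped were 24 h DMSO and 16 h DMSO, 16 h DMSO and E3.75, and E4.0 and 24 h LY. The other neighbours in this order did not overlap. The 3 genes whose level was most like that of Bad over the 18 experiments were Arl4d, a small GTPase (Pearson r = 0.88), Spint1, a protease inhibitor (r = 0.85), and Tmem254a (r = 0.83). Experiments share dates, cell composition and library quality, so these values are descriptions.

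Among the other BH3-only genes, Bcl2l11, a strong activator of BAX and BAK, varied most between experiments of 1 stage. Its level was 2.62 and 3.31 at E3.25, 1.09 and 3.53 at E3.75 and 2.16 and 0.35 at E4.0. Experiments at E3.75 spanned both other stages, and E4.0 lay below E3.25 without overlap. E4.0 minus E3.25 was -1.71 (95% interval -4.12 to 0.70). It was detected in 5 of 14 cells at E4.0, all of the first experiment, and in 13 of 19 at E3.25.

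Pmaip1, a p53 target whose protein binds MCL1, had its highest levels at the last stage. Its level was 1.39 and 1.18 at E3.25, 0.75 and 0.71 at E3.75 and 1.47 and 3.12 at E4.0. Both E4.0 experiments were the highest of the 18, the lower of them close to E3.25. Against E3.75 the difference was 1.56 ± 0.50 (SE), which did not pass (limma adjusted p = 0.194). It passed without the first E4.0 experiment (2.39; limma adjusted p = 0.0144), and without the second it was 0.74 (limma adjusted p = 0.941), so its size turned on the second E4.0 experiment. Cells with Pmaip1 numbered 10 of 14 at E4.0 (71.4%, exact 95% interval 41.9% to 91.6%), against 4 of 22 at E3.75 (18.2%, 5.19% to 40.3%). These intervals cover counting of pooled cells only, not the spread between experiments, and are no test of the stages. Across cells Pmaip1 correlated with the primitive endoderm score at 0.40 (0.25 within experiments), the same score that was highest at E4.0. The part of that lineage in the profile was not tested.

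By group mean, Pmaip1 stood highest at E4.0 (2.29 ± 1.16, n = 2), then at E3.25 (1.28 ± 0.15, n = 2) and E3.75 (0.73 ± 0.02, n = 2), with 24 h LY, 24 h DMSO and 16 h LY between 0.35 and 0.46 and 16 h DMSO at 0.06 ± 0.10 (n = 3; all SD). The 4 culture groups overlapped. In culture it was detected in 9 of 114 cells.

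The activator gene Bid, whose protein is cleaved by caspase-8, stayed between 0.28 and 1.00 over the fresh experiments. Bbc3, another p53 target, was detected in 0 of 19 cells at E3.25 and 0 of 14 at E4.0, which allow shares of up to 15.8% and 21.4%, and in 4 of 22 cells at E3.75. Those 4 cells were all of the first E3.75 experiment. Bmf, whose protein is tied to the cytoskeleton until released, lay between 0.09 and 1.16 in the fresh experiments. The E4.0 minus E3.25 differences of these 3 genes lay between -0.32 and -0.0043, with limma adjusted p of 0.864 or more.

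Genes that act with the family were counted from lists of the same pathway, for E4.0 against E3.25. Of 27 tested regulators of the family (of 30), 1 rose and 1 fell, with a median difference of -0.42 beside 0.20 over all genes. Sfn, the gene of 14-3-3 sigma, fell: its level was 2.37 and 3.96 at E4.0, against 6.07 and 7.27 at E3.25 (-3.51 ± 0.75 SE; limma adjusted p = 0.0138). Its groups did not overlap, but the call was lost without the second E3.25 experiment (-2.91; adjusted p = 0.231) or the first E4.0 experiment (-2.71; adjusted p = 0.135). Of all 18 alternatives, 13 kept the call (-5.17 to -1.96 over the 18). At E3.75 Sfn had levels of 4.19 and 5.18, between those of the other stages. The trophectoderm score given above was also lower at E4.0 than at E3.25, but it was lowest at E3.75. The part of such cells was not tested.

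Fbxw7, a ubiquitin ligase subunit that marks MCL1 for destruction, rose. Its level was 1.80 and 2.32 at E4.0, 0.24 and 0.06 at the E3.75 stage and 0.73 and 0.04 at E3.25. The E4.0 experiments lay above both earlier stages without overlap, and 9 of 14 cells detected it at E4.0, against 1 of 22 at E3.75 and 2 of 19 at E3.25. The difference was 1.91 ± 0.43 (SE) against E3.75 (limma adjusted p = 0.0230) and 1.67 ± 0.43 against E3.25 (adjusted p = 0.0471). Against E3.25 the call ended when either E3.25 experiment was left out (2.02 and 1.33; limma adjusted p = 0.0629 and 0.450), or the second of E4.0 (1.42; limma adjusted p = 0.261). Against E3.75 it ended when either E3.75 experiment was left out (2.00 and 1.82; limma adjusted p = 0.122 and 0.210), or the second of E4.0 (1.65; limma adjusted p = 0.173). Over all alternatives the call held in 6 of 18 against E3.25 (0.42 to 3.61) and in 7 of 18 against E3.75 (0.51 to 3.94), each time with E4.0 higher. Quantile normalization ended both calls (1.34 and 1.56; limma adjusted p = 0.110 and 0.0801), as did genes detected as a covariate (1.49 and 1.72; adjusted p = 0.0799 and 0.0525). Genes detected per cell averaged 7459 ± 315 at E4.0, against 6186 ± 262 at E3.75 and 6235 ± 223 at E3.25 (SD, n = 2 experiments each), and their part in the Fbxw7 difference was not tested further.

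No other pathway list gave a call in E4.0 against E3.25. The caspase and apoptosome genes, which execute death after cytochrome c release, had 0 of 13 tested genes past the limma threshold (1 at an unadjusted p under 0.05; median 0.39). Inhibitors of apoptosis had 0 of 5 (none at an unadjusted p under 0.05; median 0.25), and genes of the outer mitochondrial membrane 0 of 8 (none at an unadjusted p under 0.05; median -0.36). Other pro-death relatives had 0 of 7 (1 at an unadjusted p under 0.05; median 0.11). The median over all 11680 genes was 0.20.

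Embryos cultured with LY address how inner cells differ when PI3K is inhibited, a pathway that acts on BAD protein and on transcription of Bcl2l11 and Bbc3. At 16 h, 0 of the 9 family genes passed the limma threshold (0 at an unadjusted p under 0.05), and 0% of all tested genes were called (641 at an unadjusted p under 0.05). At 24 h, 0 of the 9 passed (1 at an unadjusted p under 0.05), and again 0% of all genes (615 at an unadjusted p under 0.05). The difference between the LY effects at 24 h and at 16 h was called for 0 of 9 (none at an unadjusted p under 0.05), with 0% of all genes (291 at an unadjusted p under 0.05). These fits held no date term, although LY and DMSO experiments shared dates. With date as a block, limma again called 0 of all tested genes. At 16 h, 1413 genes, 1 of them a member, were then at an unadjusted p under 0.05. At 24 h these counts were 1334 and 2, and for the difference of the LY effects 707 and 0.

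**Figure D4:**
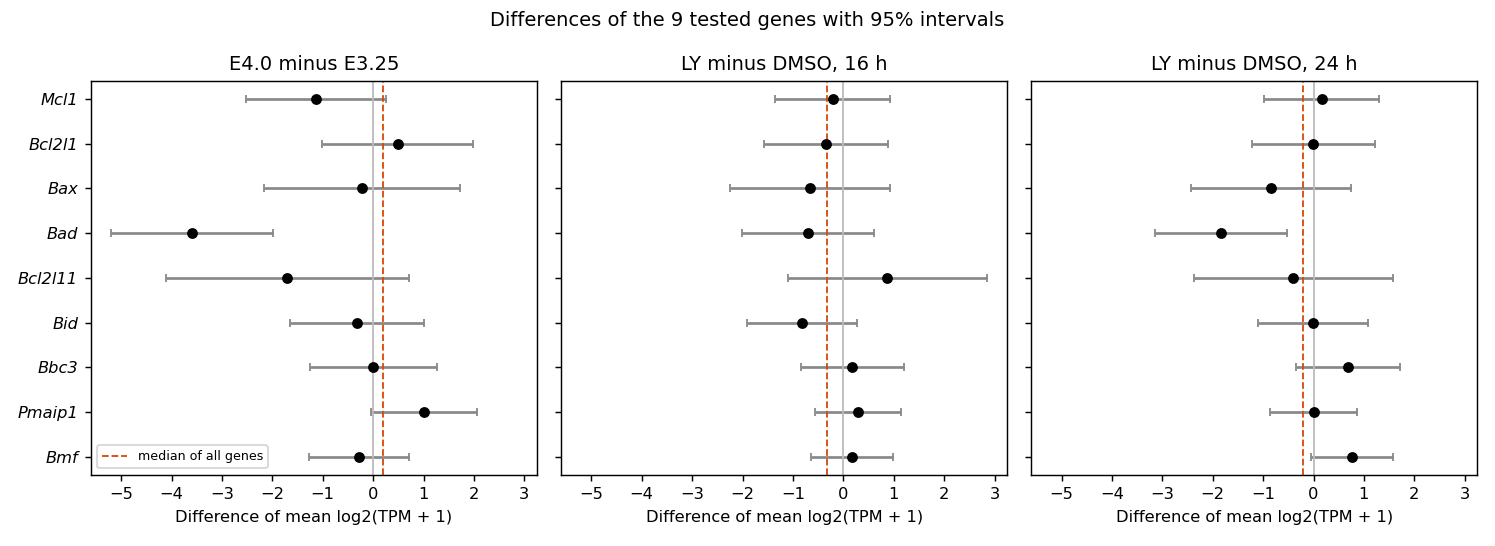
Differences of mean log2(TPM + 1) with 95% intervals for the 9 tested genes in E4.0 minus E3.25, LY minus DMSO at 16 h and LY minus DMSO at 24 h, with the median of all genes as a dashed line. Bad lies far left at E4.0 minus E3.25 (-3.59), and its 24 h LY difference (-1.83) is the one LY interval that does not cross 0.

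Among the family genes, the LY difference with the smallest unadjusted p was that of Bad at 24 h. The 24 h LY experiments had levels of 2.46, 3.98 and 3.27, against 6.08, 4.28 and 4.84 in 24 h DMSO. All 3 LY experiments lay below all 3 DMSO experiments. The difference was -1.83 ± 0.63 (SE; 95% interval -3.14 to -0.52), and it did not pass over all genes (unadjusted p = 0.00849, limma adjusted p = 0.899). LY minus DMSO was -3.62, -0.30 and -1.57 on the 3 dates. The first date is that of the 24 h DMSO experiment with the lowest mitochondrial share. Bad was detected in 16 of 24 LY cells (66.7%, exact 95% interval 44.7% to 84.4%), against 26 of 28 DMSO cells (92.9%, 76.5% to 99.1%). Both intervals cover counting of pooled cells only, not the spread between experiments. On each of the 3 dates the LY share was lower, with 4 of 7, 9 of 12 and 3 of 5 cells in LY, against 5 of 6, 10 of 11 and 11 of 11 in DMSO.

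LY cells at 24 h also had fewer detected genes, 5439 ± 918 against 6454 ± 648 in DMSO (SD, n = 3 experiments each). The 8 LY cells without Bad detected a median of 4926 genes and the 16 LY cells with Bad 5354. With genes detected as a covariate the Bad difference was -1.56 (limma adjusted p = 0.850), and without the first DMSO experiment it was -1.32 (adjusted p = 0.818). As the logarithm of the mean TPM it was -0.94 (adjusted p = 0.744), since mean TPM was 18.2, 57.05 and 49.1 in LY and 142.3, 47.7 and 55.2 in DMSO.

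**Figure D5:**
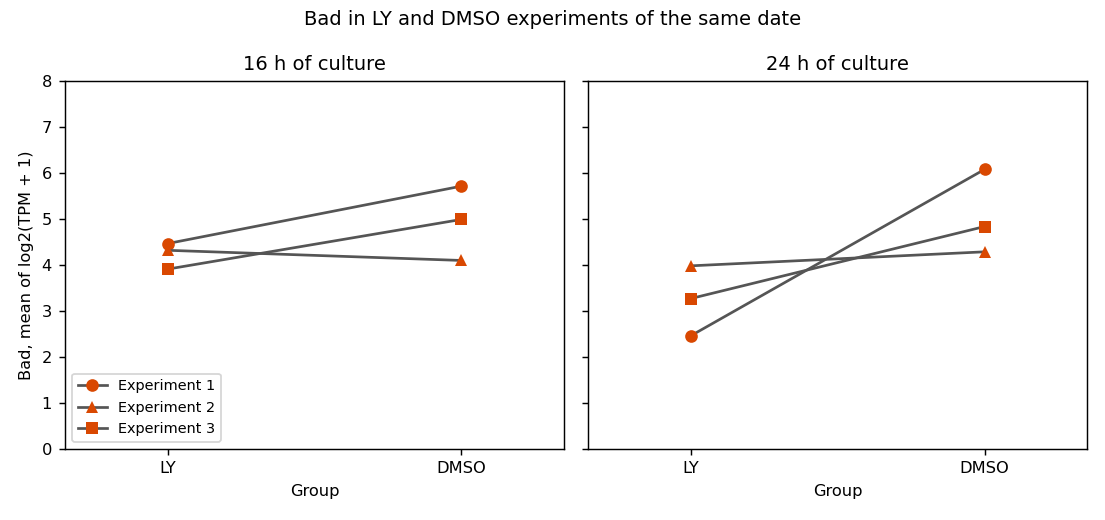
Mean log2(TPM + 1) of Bad in the LY (left) and DMSO (right) experiments of the same date, joined by lines, at 16 h and at 24 h of culture. At 24 h each line climbs toward DMSO, and at 16 h experiment 2 does not.

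At 16 h Bad had levels of 4.46, 4.32 and 3.91 in LY, against 5.71, 4.10 and 4.99 in DMSO. The groups overlapped, and the difference was -0.70 (95% interval -2.01 to 0.61). The LY effect on Bad at 24 h minus that at 16 h was -1.13 (95% interval -2.98 to 0.72), so a change of the effect with time was not detected.

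The FOXO-responsive genes showed no LY difference beyond the spread between experiments. Bcl2l11 had a mean TPM of 15.8, 36.03 and 2.89 in the 16 h LY experiments, against 2.27, 11.6 and 4.22 in those of 16 h DMSO. At 24 h its mean TPM was 2.47, 3.79 and 14.9 in LY, against 74.2, 1.10 and 5.82 in DMSO. On the log2(TPM + 1) scale LY minus DMSO was 2.14, 1.27 and -0.79 on the 3 dates of 16 h, and -3.01, 0.59 and 1.21 on those of 24 h. The -3.01 rests on the first 24 h DMSO experiment, that of the lowest mitochondrial share. Both pairs of groups overlapped, with fitted differences of 0.87 (95% interval -1.10 to 2.85) at 16 h and -0.40 (-2.38 to 1.57) at 24 h. The intervals are wide in both directions.

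Bbc3 had levels of 1.05, 0.94 and 0.04 in 16 h LY, against 0.66, 0.24 and 0.59 in 16 h DMSO. At 24 h it had 2.71, 0.22 and 1.46 in LY and 1.94, 0.15 and 0.26 in DMSO. LY was higher on all 3 dates at 24 h, though the groups overlapped, and the difference was 0.68 (95% interval -0.35 to 1.71). It was detected in 6 of 24 LY cells and 5 of 28 DMSO cells.

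Bmf had levels of 0.92, 0.13 and 2.01 in 24 h LY, against 0.00, 0.16 and 0.61 in 24 h DMSO, with overlap and a difference of 0.76 (95% interval -0.05 to 1.57). Bid at 16 h was lower in LY on all 3 dates, with levels of 1.70, 0.29 and 0.05 in LY, against 2.92, 0.86 and 0.75 in DMSO. The difference was -0.83 (95% interval -1.92 to 0.26), and the highest DMSO value came from the experiment with 3 cells and raised trophectoderm markers.

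The anti-death genes differed by less than the spread between experiments. Mcl1 had levels of 4.25, 5.56 and 4.31 in 24 h LY, against 4.61, 4.66 and 4.38 in 24 h DMSO, a difference of 0.16 ± 0.55 (SE). Bcl2l1 had 1.65, 1.92 and 1.91 in 24 h LY, against 1.96, 1.51 and 2.02 in 24 h DMSO, a difference of -0.00345 with a 95% interval of -1.23 to 1.22. For Bax the 24 h difference was -0.85 (95% interval -2.44 to 0.74, from the fit without dates). LY lay below DMSO on all 3 dates at both culture times while the groups overlapped. By date, LY minus DMSO was -0.89, -0.21 and -0.86 at 16 h and -1.35, -0.68 and -0.51 at 24 h.

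Pathway lists gave no call for LY in limma. At 24 h, 0 of 27 regulators passed (1 at an unadjusted p under 0.05), 0 of 13 caspase and apoptosome genes, 0 of 5 inhibitors of apoptosis, 0 of 8 outer membrane genes and 0 of 7 other pro-death relatives (none of these at an unadjusted p under 0.05). At 16 h the counts were also 0 in these 5 lists, with 1 caspase or apoptosome gene at an unadjusted p under 0.05. The median of all genes was itself -0.33 at 16 h and -0.20 at 24 h.

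Culture without inhibitor was set against fresh embryos of near age. In 16 h DMSO against E3.25, 0 of 9 family genes passed limma (2 at an unadjusted p under 0.05), against 0.0514% of all genes (1599 at an unadjusted p under 0.05, 13.7%). In 24 h DMSO against E3.75, 0 of 9 passed (none at an unadjusted p under 0.05), against 0% of all genes (370 at an unadjusted p under 0.05). In 24 h DMSO against 16 h DMSO, 0 of 9 passed (none at an unadjusted p under 0.05), against 0.00856% of all genes (1268 at an unadjusted p under 0.05). Bad had 5.71, 4.10 and 4.99 in 16 h DMSO and 6.42 and 7.48 at E3.25, without overlap, a difference of -2.02 ± 0.70 (SE; limma adjusted p = 0.248). Pmaip1 had 0.00, 0.17 and 0.00 in 16 h DMSO and 1.39 and 1.18 at E3.25, also without overlap, a difference of -1.23 ± 0.46 (SE; adjusted p = 0.263). The 16 h comparison also spans collection periods and the experiment of 3 cells, so these 2 differences cannot be told apart from date. The E3.25 experiments are shared with the stage comparison above.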

How the data were processed

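Per the labels' protocols, RNA of single cells was reverse-transcribed from the 3′ end, amplified, made into Nextera XT libraries and sequenced in pairs. The authors deposited 1 table of TPM values with 170 columns, each matched to a sample by title, and 16 of the 186 labelled samples were not analysed here. The submitters' processing notes name RSEM 1.3.3, STAR 2.7.9a, cutadapt 2.9, bcl2fastq 2.20.0 and the mm10 build. Their gene annotation is not stated in what was used. Because TPM is scaled by length and reads come mostly from transcript ends, levels were compared within a gene.

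Of 55513 lines, 92 spike-in lines were left out. There were 2 pairs of columns whose titles differ by a suffix alone. The E3.25 pair (correlation 0.824, against at most 0.783 with other cells) was averaged, and the 24 h LY pair (0.594, against 0.724) was kept apart. The remaining 169 cells were all used. Each is a picked single cell, so doublets were not called.

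Experiment means of log2(TPM + 1) were fitted for all 7 groups together with limma 3.58.1 in R 4.3.3 (trend, no date term, 11 residual degrees of freedom). Adjusted p-values are over 11680 genes per comparison, and 9 comparisons were made. The pseudocount understates changes of low genes. Intervals of shares are exact Clopper-Pearson intervals, and the limit for a count of 0 is 3 cells of the total. The steps were tested on simulated data. LY and DMSO arms carry the same date labels, so dates pair them. Deviations of same-date experiments correlated at 0.393, 0.121 and 0.317 at 16 h and at 0.231, 0.120 and 0.0732 at 24 h.

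Members, pathway lists and marker lists were chosen with earlier results of these data known. All 10 members are named, with every other listed gene that passed the threshold and the 3 genes most like the member with the smallest p. Gene positions, overlaps and coding bases are from GENCODE M21 (GRCm38), read with Python 3.11.15. Alternatives changed the pseudocount, filter, scaling, averaging, weights, covariates, groups fitted, sequencing run, repeat columns and each experiment in turn.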

Additional observations from a re-analysis of the deposited data

How the results depend on the processing

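Across the 9 comparisons the count of members called stayed the same in all alternatives run except in the stage comparisons with E4.0. In E4.0 against E3.25 the 1 member called (Bad) fell to 0 when only these groups were fitted (adjusted p = 0.391), with cells of sequencing run 1 only (adjusted p = 0.273) and with cells of run 2 only (adjusted p = 0.0643), fits that hold fewer samples or cells. Leaving out 1 experiment gave 0 to 1 members there, and 0 to 1 in E4.0 against E3.75, where Pmaip1 passed without the first E4.0 experiment. None of the 7 member differences with an unadjusted p under 0.05 changed sign. With date as a replicate block, 0 members passed for LY at 16 h, at 24 h and in their difference, and Bad at 24 h was -1.83 (limma adjusted p = 0.333).

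The number of genes called of all tested was less stable. It was 195 in E4.0 against E3.25 (0 to 361 over 18 alternatives), 165 in E4.0 against E3.75 (0 to 278), 0 in E3.75 against E3.25 (0 to 90), 6 in 16 h DMSO against E3.25 (0 to 81), 0 in 24 h DMSO against E3.75 (0 to 17), 1 in 24 h DMSO against 16 h DMSO (0 to 11), 0 for LY at 16 h (0 to 2), and 0 for LY at 24 h and for the difference of LY effects under every alternative run. Of 70 detection shares, 27 left their 95% interval with any TPM above 0, 38 with a TPM of 10 or more, 6 in run 1 and 11 in run 2. Depth is unknown, and 2 or 3 experiments a group limit what could be called.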

Other observations

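Levels of the 10 genes correlated weakly with one another from cell to cell. Over 45 gene pairs the Pearson correlation of log2(TPM + 1) across the 169 cells lay between -0.12 and 0.20, the highest for Bax and Bid. Within experiments it lay between -0.08 and 0.17. These values describe sparse data, in which missed transcripts also lower a correlation, so they do not show that the levels are independent. The 4 cells without detected Mcl1 were 2 of 24 in 24 h LY and 2 of 28 in 24 h DMSO. They detected 3806 and 4750 genes in LY, and 4748 and 5443 in DMSO, against medians of 5266 and 6564 in the cells of those groups with Mcl1. Single cells reached high values of otherwise rare genes: Bbc3 had 118 TPM in a 24 h LY cell, and Pmaip1 had 120 TPM in a 24 h DMSO cell.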
